A study of Homo sapiens with 6 samples.

Results

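Long intergenic non-coding RNA genes, those whose symbol is LINC followed by digits only, were described in M14, an established human melanoma line, grown in 2 ways. The members were selected on their mean level, as genes of the deposited table with such a symbol and at least 20 normalised counts on average across the 6 libraries. Of 26748 genes in the table, 663 had such a symbol and 165 met that minimum. Levels are therefore given as a description. The cultures were conventional adherent cells on a surface (2D, 3 libraries) and melanospheres, multicellular spheres that grow without attachment (3D, 3 libraries). Both came from the same line with no further treatment, genotype or time named in the labels. Whether replicates were separate cultures is not said, so every p-value reflects the spread among these libraries, which may be technical. In bulk RNA, fewer cells of a type and less RNA per cell cannot be told apart.

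Long non-coding RNAs are transcribed by RNA polymerase II and are often capped, spliced and polyadenylated like messenger RNA, but code for no known protein. LINC symbols are given in numerical order to genes lying between protein-coding genes, without regard to function, so the members form no pathway. Many such RNAs are low, restricted to few cell types, retained in the nucleus or degraded there by the RNA exosome, and some act on the gene next to them. A few have been studied in cancer, often as transcripts that differ between tumour and normal tissue.

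As recovered from the deposited values, libraries held 16567763 to 19954987 reads in genes of the table, and all shares of reads refer to these. Mitochondrial transcripts took 0.528% to 1.49% of these reads in 2D and 4.28% to 5.76% in 3D. Of 12 melanoma and pigment cell markers 5 were high enough to test, of which MITF and DCT fell and S100A1 rose (a call that ended on omitting 2D replicate 2 or either of 3D replicates 1 and 3, with adjusted p reaching 0.085), and their summed level was 1643 to 1944 in 2D and 1019 to 1785 in 3D. MITF had 887 to 1295 in 2D and 271 to 309 in 3D and PMEL, which did not pass, 227 to 753 in 2D and 620.4 to 1377 in 3D (adjusted p = 0.053), and these 2 made up most of that sum. Several other defining markers were low: SOX10 had at most 37.0 normalised counts in any library, MLANA at most 17.5, TYR at most 33.9 and S100B at most 13.4. Each of these was highest in 2D replicate 3, and TYR and S100B had no reads in 3D replicates 1 and 3. Epithelial markers, nearly all KRT8 and KRT18, summed to 22295 to 59678 in 2D and 30469.6 to 41717 in 3D, with EPCAM and CDH1 lower in 3D. Fibroblast markers, mostly COL1A1 and COL3A1, summed to 2042 to 6539 in 2D and 9263 to 12212 in 3D. COL3A1 rose (log2 2.89, adjusted p = 0.0065, kept in all 6 fits omitting 1 library), COL1A1 and PDGFRB did not pass, PDGFRB having 56.6 to 536 in 2D and 223 to 981 in 3D, and DCN was at 0 in 2D and at most 3.88 in 3D. Endothelial markers summed to 39.5 to 318 in 2D and 138 to 187 in 3D. Of these PECAM1 rose, from 3.08 ± 5.34 to 117 ± 32.6. CDH5 and VWF did not pass (log2 -1.12 and -0.82), and KDR had no reads in 3D and at most 2.14 in 2D. The highest 2D sum came mostly from CDH5, at 268 in 2D replicate 3. Immune markers stayed at 6.17 to 10.7. The part of these and of the mitochondrial share in the changes of the members was not tested.

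The members were mostly low, and a few held much of the signal. Their means over the 6 libraries ran from 20.4 to 3759 normalised counts with a median of 73.7, against 628 for protein-coding genes at the same minimum, and 105 of 165 stayed under 100. The 10 highest held 48.5% of the summed mean level, and LINC00963 alone 13.1%. Levels were also divided by kilobases of annotated exon, taken over all transcripts of a gene together. This lowers the value of genes with many alternative exons, so ranks between genes are rough. The median was then 32.8 normalised counts for members, 32.8 for 1062 other long non-coding RNA genes and 117 for 12089 protein-coding genes. On that scale LINC01537 led with 888, followed by LINC02582 with 437 and LINC00958 with 382. LINC00963 ranked 7 at 285, its exons covering 13.2 kb. Lowest of all on it was LINC00511, at 1.34 per kilobase over 27.6 kb of exon, although its longest transcript has only 3766 bases.

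The symbol did not always mean an intergenic place. By GENCODE 29 (GRCh38), 125 members had the biotype lincRNA, 16 processed transcript, 11 antisense and 8 transcribed unprocessed pseudogene. LINC03040 and LINC02693 were still listed there as protein-coding genes, as C6orf223 and C17orf51. The span of 86 members overlapped no other gene on either strand, that of 79 overlapped at least 1, and 18 overlapped a protein-coding gene. Exons of 56 members overlapped exons of another gene, and because the library kit does not mark strand, reads from such stretches have no certain origin. The nearest protein-coding gene lay at a median of 11.6 kb, and the median exon length was 2458 bases. In 18 members more than 20% of 75-base windows of their transcripts also occurred in another gene, and their values are uncertain.

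More members rose than fell in the spheres. By limma with Benjamini-Hochberg adjustment over the 15598 genes tested, 42 of 165 members rose and 13 fell at an adjusted p under 0.05. These 55 called members compare with 24.1% of all genes called. The risers were 25.5% of members (background 12.5%) and the fallers 7.88% (background 11.6%). Of other long non-coding RNA genes at the same minimum 23.2% rose and 3.86% fell, and of protein-coding genes 10.7% and 13.9%. The median log2 change was 0.30 for members, 0.44 for other long non-coding RNA genes, -0.09 for protein-coding genes and -0.02 for all genes.

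Values of the cultures did not overlap in 82 members (background 43.1%), 61 of them higher (background 20.5%) and 21 lower in 3D (background 22.6%). Of the 42 risers, 18 had a 2D mean under 20 and so met the minimum only through 3D, and 2 of the 13 fallers had a 3D mean under 20. Among the 128 members with both means at 20 or more, 24 rose and 11 fell, with no share over all genes filtered in this way set beside them. These counts describe the members and are no test of them as a group.

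The counts depended on single libraries. Omitting 2D replicate 3 gave 84 called members (background 45.6%), 53 higher (background 22.6%) and 31 lower (background 23%). Without 2D replicate 1 there were 23 higher (background 5.32%) and 5 lower (background 4.61%), and without 2D replicate 2 there were 24 higher (background 6.57%) and 6 lower (background 4.92%). Of the 3D libraries, omitting replicate 1 left 14 higher (background 3.9%) and 7 lower (background 4.47%), omitting replicate 2 left 39 higher (background 10.1%) and 10 lower (background 9.03%), and omitting replicate 3 left 13 higher (background 3.42%) and 5 lower (background 4.21%). In all 6 of these fits 12 risers and 5 fallers kept their call, a count without a share over all genes beside it. In an added fit that omitted 2D replicate 3 together with 3D replicate 2, the called members (background 58%) were 65 higher (background 28.4%) and 40 lower (background 29.5%). Among called members these 2 libraries often lay toward the other culture. In the 42 risers 3D replicate 2 was the lowest 3D library in 30 and the highest in 7. In the same risers 2D replicate 3 was the highest 2D library in 24, and in the 13 fallers it was the lowest in 12. Shares over all called genes were not set beside these counts, so they mark no trait of the members.

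**Figure D1:**
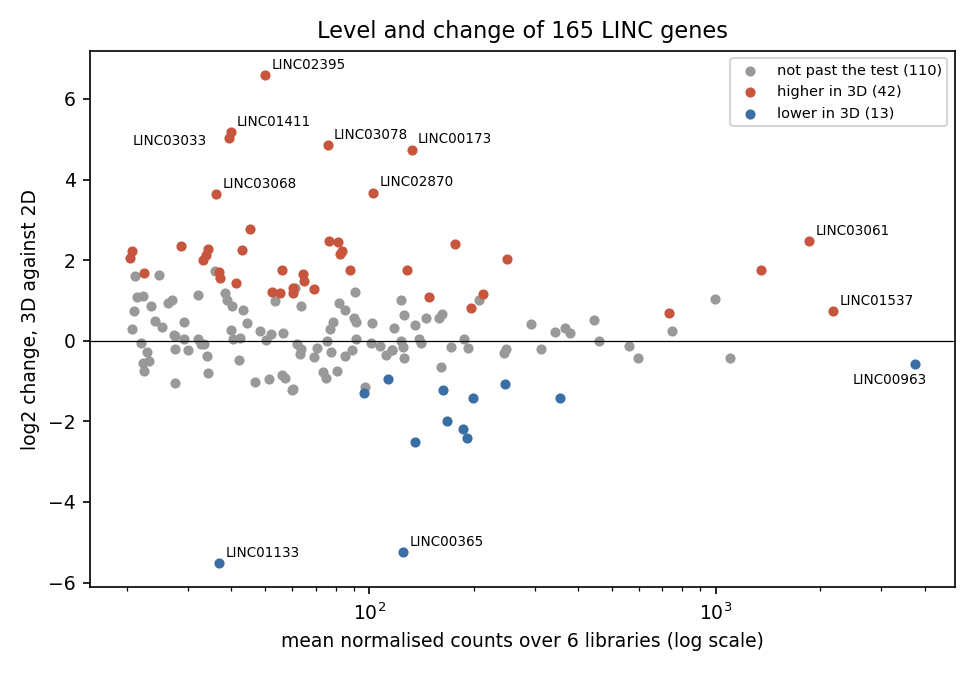
Mean normalised counts over the 6 libraries (log axis) against the log2 change between 3D and 2D for the 165 LINC genes; colour marks the 42 risers and 13 fallers past adjusted p under 0.05. Of the 7 genes beyond 4 on the log2 scale in either direction, none is among the most abundant, whereas LINC03061 and LINC03040 are abundant and rose.

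The share of a library's reads in the 165 members was 0.141%, 0.150% and 0.127% in 2D replicates 1, 2 and 3, and 0.199%, 0.163% and 0.199% in 3D replicates 1, 2 and 3. All 3D libraries lay above all 2D libraries, with 3D replicate 2 the lowest of its culture and 2D replicate 3 the lowest of all. The means were 0.139% ± 0.0118 and 0.187% ± 0.0208 (SD, n = 3 each). In normalised counts the members summed to 25758 ± 2171 in 2D and 31427 ± 3447 in 3D, a smaller relative rise. Total normalised counts of a library were 18061063 to 19018167 in 2D and 16523915 to 17102281 in 3D. The sum follows a few abundant genes and was not tested.

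**Figure D2:**
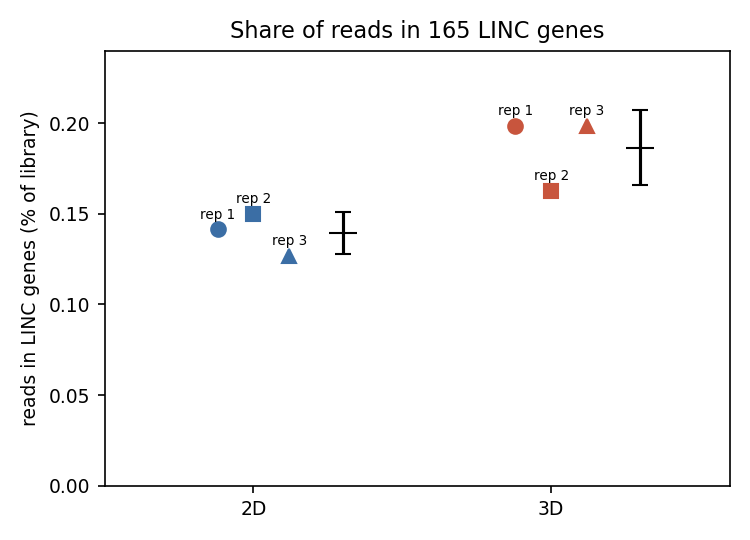
Share of each library's reads in the 165 LINC genes, in percent, by culture; symbols are libraries and the black marks give mean and SD of 3 libraries. The 3D libraries lie between 0.163% and 0.199%, above the 2D libraries at 0.127% to 0.150%.

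The largest rise was that of LINC02395 (ENSG00000257771, chromosome 12, 49911953 to 49930320, plus strand, GRCh38), a gene with up to 6 exons. It had 0, 0 and 0 normalised counts in 2D replicates 1, 2 and 3 and 110.4, 60.1 and 130.1 in 3D replicates 1, 2 and 3. No 2D library had a read and every 3D library did, with 3D replicate 2 lowest. Against the limit that no read allows (3 reads summed over the 2D culture) the level in 3D was at least 98.4-fold higher, or 63.5-fold when 2D replicate 1 was omitted and 118-fold when 3D replicate 2 was (adjusted p = 0.00037). LINC00173 (ENSG00000196668, chromosome 12, 116533422 to 116536518, plus strand) had 6.67, 3.20 and 16.4 in 2D and 297, 94.0 and 378 in 3D. Its 2D replicate 3 was the highest in 2D and its 3D replicate 2 the lowest in 3D, with no overlap, and the gene rose by 4.74 on the log2 scale (SE 0.65, adjusted p = 0.0027), a range of 4.25 to 5.35 over fits omitting 1 library.

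The start regions of these risers are shown because they differ in CG content. They come from RefSeq (GRCh38.p14), from 250 bases before to 50 after the annotated start, in lower case with the letters of any searched motif in capitals.
LINC02395, chr12:49911703-49912002, plus strand: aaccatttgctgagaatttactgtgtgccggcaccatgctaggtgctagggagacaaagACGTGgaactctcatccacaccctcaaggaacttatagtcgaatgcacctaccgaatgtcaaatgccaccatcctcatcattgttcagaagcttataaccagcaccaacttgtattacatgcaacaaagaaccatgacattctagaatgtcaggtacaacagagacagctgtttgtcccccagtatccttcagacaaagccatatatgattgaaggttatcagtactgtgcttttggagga
LINC00173, chr12:116533172-116533471, plus strand: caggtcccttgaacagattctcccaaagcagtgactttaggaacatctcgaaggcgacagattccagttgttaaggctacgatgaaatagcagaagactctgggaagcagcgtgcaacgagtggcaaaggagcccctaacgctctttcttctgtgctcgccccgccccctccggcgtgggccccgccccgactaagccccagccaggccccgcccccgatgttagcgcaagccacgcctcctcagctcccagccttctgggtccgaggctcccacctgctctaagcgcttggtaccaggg
LINC02395 had 4 CG pairs and LINC00173 had 18, where the median of all 35116 windows was 14. The capitals in LINC02395 mark ACGTG, the core of a hypoxia response element, and LINC00173 held no searched motif.

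LINC03078 (chromosome 19) had 2.86, 2.14 and 7.20 in 2D and 189, 66.9 and 187 in 3D. Here too 3D replicate 2 was the lowest of 3D and still far above every 2D library, and the log2 change was 4.86 (SE 0.56, adjusted p = 0.0012). In LINC01411 (chromosome 5) and LINC03033 (chromosome 14) 3D replicate 2 was instead the highest library. LINC01411 had 4.77, 0 and 0 in 2D and 43.6, 152 and 38.2 in 3D, all its 2D reads lying in replicate 1. LINC03033 had 1.91, 3.20 and 0 in 2D and 53.8, 107 and 70.2 in 3D. Neither overlapped between the cultures, and the log2 changes were 5.17 (SE 0.84, adjusted p = 0.0051) and 5.02 (SE 0.62, adjusted p = 0.0016). Of the windows of LINC03033, 17.2% occur in other genes. All 5 genes of the largest rises passed in every fit omitting 1 library.

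Nearby members did not always share a call: LINC01409 rose and LINC01547 fell, while LINC01128 and LINC00163 near them did not pass. A pair of adjacent genes on chromosome 10 rose together. LINC02870 and LINC03068 lie 2.84 kb apart on opposite strands. LINC02870 had 5.72, 13.9 and 30.8 in 2D and 172, 222 and 171 in 3D. LINC03068 had 0.953, 8.54 and 7.20 in 2D and 65.9, 51.4 and 82.6 in 3D. Neither overlapped between the cultures, the log2 changes were 3.68 (SE 0.53, adjusted p = 0.0032) and 3.63 (SE 0.64, adjusted p = 0.0068), and both passed in every fit omitting 1 library. Their nearest protein-coding gene, PWWP2B, had 417 ± 47.4 in 2D and 537 ± 105 in 3D and did not pass (adjusted p = 0.24). On chromosome 20, LINC01275 and LINC01273 lie 6.45 kb apart and were chosen after their values were seen. LINC01275 had 13.3, 8.54 and 11.3 in 2D and 52.0, 52.3 and 68.1 in 3D, a log2 change of 2.29 (SE 0.37, adjusted p = 0.0050) that passed in every such fit. LINC01273 had 43.8, 49.1 and 77.1 in 2D and 244, 111 and 245 in 3D, a log2 change of 1.76 (SE 0.39, adjusted p = 0.015), and omitting any one of 2D replicates 1 and 2 and 3D replicates 1 and 3 ended the call (adjusted p of up to 0.077).

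Of the abundant members, LINC03061 (chromosome 13, AL161431.1 in GENCODE 29) rose most, with 312, 532 and 759.7 in 2D and 4221, 1239 and 4058 in 3D. All 3D libraries were above all 2D libraries, 3D replicate 2 by the smallest margin. The log2 change was 2.46 (SE 0.49, adjusted p = 0.011), and omitting 3D replicate 3 ended the call (adjusted p of up to 0.055). LINC03040, listed as a coding gene in GENCODE 29, had 458, 453 and 1054 in 2D and 2055, 1997 and 2078 in 3D. Its 3D libraries were close to each other and 2D replicate 3 was the highest in 2D, and the log2 change of 1.76 (SE 0.31, adjusted p = 0.0070) was 2.16 when that library was omitted. LINC01537 had 1588, 1502 and 1771 in 2D and 2805, 2292 and 3089.6 in 3D, a log2 change of 0.74 (SE 0.17, adjusted p = 0.019). LINC00205 had 519, 594 and 559 in 2D and 879.6, 795 and 1032 in 3D, a log2 change of 0.69 (SE 0.18, adjusted p = 0.026). In both the cultures did not overlap, and omitting any one of 2D replicates 1 and 2 and 3D replicates 1 and 3 ended the call (adjusted p of up to 0.091 and 0.12).

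LINC01588 had 8.58, 7.47 and 18.5 in 2D and 91.9, 66.9 and 77.4 in 3D, a log2 change of 2.76 (SE 0.42, adjusted p = 0.0041), and its span overlaps 5 other genes. LINC01315 had 51.5, 27.8 and 109 in 2D and 341, 229.7 and 302 in 3D, a log2 change of 2.39 (SE 0.46, adjusted p = 0.0091). Both passed in every fit omitting 1 library. LINC00482 had 10.5, 24.6 and 36.0 in 2D and 169.8, 72.7 and 146 in 3D, a log2 change of 2.47 (SE 0.51, adjusted p = 0.012), and omitting either of 3D replicates 1 and 3 ended the call (adjusted p of up to 0.063). LINC00472, described as a transcript reduced in breast cancer, had 7.62, 28.8 and 54.5 in 2D and 115, 139.6 and 141 in 3D. Its 2D libraries differed several-fold while those of 3D were alike, the log2 change was 2.45 (SE 0.61, adjusted p = 0.023), and omitting any one of 2D replicate 2 and 3D replicates 1, 2 and 3 ended the call (adjusted p of up to 0.090). LINC00511, studied in breast and lung cancer, had 14.3, 13.9 and 25.7 in 2D and 45.5, 84.3 and 38.2 in 3D, highest in 3D replicate 2. The log2 change was 1.56 (SE 0.44, adjusted p = 0.036), and the call held only when 2D replicate 3 was omitted (adjusted p of 0.0081 to 0.11 over the 6 fits). LINC01004 had 6.67, 6.41 and 19.5 in 2D and 45.5, 29.1 and 26.8 in 3D. It rose by 1.69 on the log2 scale (SE 0.52, adjusted p = 0.047) with the same limit (adjusted p of 0.0044 to 0.17), and edgeR, no filter and a pseudocount of 0.1 each ended the call (adjusted p of up to 0.062). Changes of the 42 risers ran from 0.69 to 6.59 on the log2 scale with a median of 2.02, and 39 were at least 1.

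**Figure D3:**
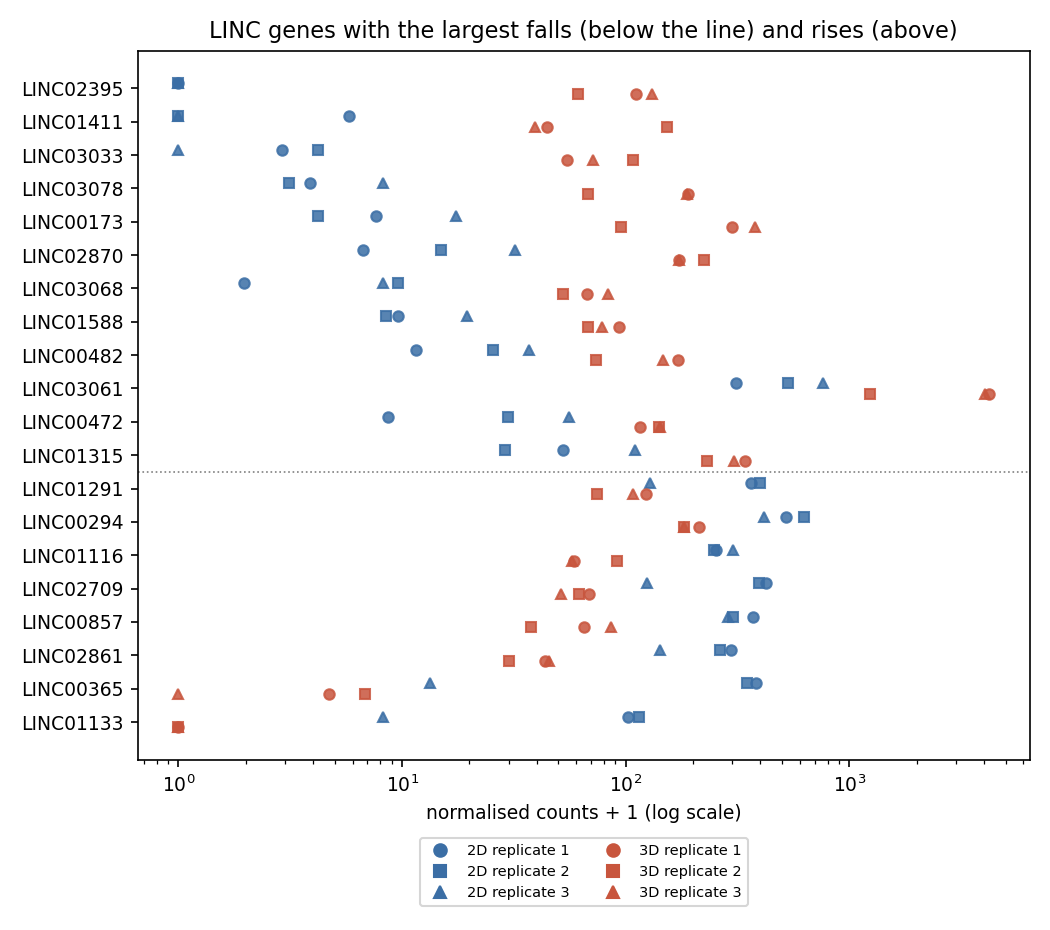
Normalised counts plus 1 (log axis) in each library for the 12 LINC genes with the largest rises and the 8 with the largest falls past the test; blue is 2D, red is 3D, and the marker shape gives the replicate. Red and blue overlap in no row because the genes were chosen to have no overlap. In LINC01133 and LINC00365 the blue triangle of 2D replicate 3 lies far below the other blue symbols.

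The largest fall was that of LINC01133 (ENSG00000224259, chromosome 1, 159961218 to 159984750, plus strand), a transcript described as binding the splicing factor SRSF6. It had 101, 113 and 7.20 normalised counts in 2D replicates 1, 2 and 3 and 0, 0 and 0 in 3D replicates 1, 2 and 3. No 3D library had a read, and 2D replicate 3 was far below the other 2D libraries. By the same kind of limit the level in 3D was at least 75.9-fold lower (adjusted p = 0.0071), 49.4-fold when 3D replicate 1 was omitted and 109.5-fold when 2D replicate 3 was; omitting 3D replicate 2 gave 50.5-fold. LINC00365 (chromosome 13) had 383, 346 and 12.3 in 2D and 3.71, 5.82 and 0 in 3D, with 2D replicate 3 again close to 3D. Its log2 change was -5.25 (SE 1.28, adjusted p = 0.022), or -6.84 when 2D replicate 3 was omitted, and omitting any one of 2D replicates 1 and 2 and 3D replicates 1 and 3 ended the call (adjusted p of up to 0.089).

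LINC01116 and LINC00857 fell with 2D libraries that were alike. LINC01116 (ENSG00000163364, chromosome 2, 176629589 to 176637931, minus strand), studied in several cancers, had 254, 247 and 300.2 in 2D and 57.5, 90.2 and 56.8 in 3D. LINC00857 (ENSG00000237523, chromosome 10, 80207710 to 80219657, plus strand) had 372, 302 and 287 in 2D and 64.0, 36.8 and 84.6 in 3D. Neither overlapped between the cultures, and they fell by 1.98 on the log2 scale (SE 0.27, adjusted p = 0.0026) and 2.42 on the log2 scale (SE 0.33, adjusted p = 0.0026). LINC02861 (chromosome 16) had 294, 263 and 141 in 2D and 42.7, 29.1 and 44.4 in 3D, with 2D replicate 3 the lowest of its culture. LINC00294 (chromosome 11) had 518, 627 and 416 in 2D and 212, 180.3 and 181 in 3D. They fell by 2.51 on the log2 scale (SE 0.35, adjusted p = 0.0029) and 1.42 on the log2 scale (SE 0.22, adjusted p = 0.0041). These 4 genes and LINC01133 kept their call in every fit omitting 1 library.

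The start regions of LINC01133 and LINC01116 are shown for the same contrast in CG content, with motif letters in capitals.
LINC01133, chr1:159960974-159961273, plus strand: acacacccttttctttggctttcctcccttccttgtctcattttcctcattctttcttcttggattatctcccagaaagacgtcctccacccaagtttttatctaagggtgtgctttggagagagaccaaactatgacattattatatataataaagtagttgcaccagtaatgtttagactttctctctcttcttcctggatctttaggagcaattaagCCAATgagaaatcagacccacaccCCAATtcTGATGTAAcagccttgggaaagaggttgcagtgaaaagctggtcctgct
LINC01116, chr2:176637560-176637859, minus strand: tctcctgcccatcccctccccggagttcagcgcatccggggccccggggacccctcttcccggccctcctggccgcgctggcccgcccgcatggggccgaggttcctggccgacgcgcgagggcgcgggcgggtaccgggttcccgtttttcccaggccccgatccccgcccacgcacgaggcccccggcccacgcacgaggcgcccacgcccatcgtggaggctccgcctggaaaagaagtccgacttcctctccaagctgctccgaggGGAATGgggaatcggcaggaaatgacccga
LINC01133 had 1 CG pair and LINC01116 had 34. The capitals mark CCAAT, at 2 places, and TGATGNAA, a composite site of ATF4 and C/EBP, in LINC01133, and GGAATG, a TEAD site, in LINC01116. The GENCODE 29 start of LINC01116 lies 322 bases from the RefSeq start used here.

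LINC02709 had 423, 394 and 123 in 2D and 67.7, 61.1 and 50.6 in 3D. LINC01291 had 363, 397 and 127 in 2D and 122, 73.7 and 106 in 3D. In both, 2D replicate 3 was the 2D library closest to 3D. LINC02709 fell by 2.19 on the log2 scale (SE 0.46, adjusted p = 0.012), and omitting either of 2D replicate 1 and 3D replicate 3 ended the call (adjusted p of up to 0.060). LINC01291 fell by 1.41 on the log2 scale (SE 0.44, adjusted p = 0.047), a call that held only when 2D replicate 3 was omitted (adjusted p of 0.00066 to 0.16 over the 6 fits). TMM scaling and equal library totals also ended it (adjusted p = 0.054 and 0.067). The remaining fallers below the top level were LINC01124, LINC03072, LINC01547 and LINC00674, named only to complete the 13, with log2 changes of -1.29, -1.23, -1.07 and -0.96. Omitting any one of 2D replicates 1 and 2 and 3D replicate 3 ended the call of LINC01547 (adjusted p of up to 0.080), and the other 3 lost theirs in more of those fits. The most abundant member, LINC00963, had 4951, 4799.5 and 3747 in 2D and 2763, 3243 and 3051 in 3D. The cultures did not overlap, with 2D replicate 3 closest to 3D, and the log2 change was -0.57 (SE 0.18, adjusted p = 0.046). The call was lost with TMM scaling, with equal library totals and with no filter on low genes (adjusted p = 0.060, 0.095 and 0.066) and by edgeR's quasi-likelihood test on whole reads (adjusted p = 0.064). Among the fits omitting 1 library it held only when 2D replicate 3 was omitted (adjusted p of 0.0043 to 0.17 over the 6 fits).

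In 2D replicate 3 the log2 level was compared with the 3D mean and the mean of 2D replicates 1 and 2. It was closer to the 3D mean in 79 of 165 members. Of these, 65 had not passed the test, 8 were risers and 6 fallers. No share over all genes was set beside this count, and a 2D library near 3D itself hinders a call. Omitting 2D replicate 3 added 11 risers and 18 fallers, and all 55 members called with 6 libraries kept their call. LINC00174 had 208, 370.4 and 44.2 in 2D and 131, 124 and 157 in 3D. LINC00239 had 224, 184 and 33.9 in 2D and 90.0, 141 and 79.5 in 3D. Both were chosen after their values were seen; in each, 2D replicate 3 was the lowest library and the 3D libraries lay between it and the other 2D libraries. Neither passed with 6 libraries (adjusted p = 0.89 and 0.87), and with 2D replicate 3 omitted their log2 changes were -1.02 and -1.01 (adjusted p = 0.017 and 0.022). LINC00942, among the 10 most abundant, had 474, 468 and 1204 in 2D and 619, 899 and 802 in 3D. There 2D replicate 3 was the highest library, and the log2 change went from 0.25 (adjusted p = 0.64) to 0.70 (adjusted p = 0.017) on omitting it.

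For 110 members no change passed, which does not show that their levels were equal. LINC00958, studied in bladder cancer, had 1338, 1291 and 1151 in 2D and 981, 951 and 864 in 3D, without overlap (log2 -0.43, adjusted p = 0.076). LINC02582 had 448, 521 and 979.7 in 2D and 1639, 767 and 1608 in 3D, where 3D replicate 2 fell within the 2D range (log2 1.05, adjusted p = 0.071). With 2D replicate 3 omitted both passed (adjusted p = 0.021 and 0.0076), as did LINC02693 and LINC00662 (adjusted p = 0.021 and 0.038). LINC01278 had 572, 697 and 487 in 2D and 545, 458 and 607 in 3D, and LINC02693 had 718, 840.1 and 506 in 2D and 489, 437 and 583 in 3D, with overlap in both (log2 -0.12, adjusted p = 0.69; log2 -0.43, adjusted p = 0.20). Of members listed because they have been studied elsewhere, LINC01503 had 126 ± 20.9 in 2D and 107 ± 14.8 in 3D (log2 -0.23, adjusted p = 0.54) and LINC00662 had 347 ± 158 in 2D and 279 ± 65.4 in 3D (log2 -0.21, adjusted p = 0.72). LINC00467 had 83.7 ± 11.6 in 2D and 119.5 ± 48.5 in 3D (log2 0.44, adjusted p = 0.36) and LINC01138 had 69.4 ± 32.5 in 2D and 87.7 ± 8.71 in 3D (log2 0.47, adjusted p = 0.43). LINC00941 had 158, 161 and 56.5 in 2D and 72.4, 178 and 69.2 in 3D (log2 -0.23, adjusted p = 0.76) and is uncertain, since 94.5% of its windows occur in another gene, chiefly a second Ensembl gene of the same name.

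Nearest protein-coding genes were set beside the members, since some long non-coding RNAs act on, or are transcribed with, the gene next to them. Of 29 risers with a tested neighbour within 50 kb, 7 neighbours rose (24.1%, background 12.5%) and 2 fell (6.90%, background 11.6%). Of 8 fallers with such a neighbour, 3 neighbours fell and 0 rose. Of 70 members not called with such a neighbour, 5 neighbours rose (7.14%) and 12 fell (17.1%). The background is over all genes, whereas of protein-coding genes with a mean of at least 20, 10.7% rose and 13.9% fell. With 2D replicate 3 omitted, 12 of 39 neighbours of risers rose and 5 fell (background 22.6% higher and 23% lower), and 8 of 19 neighbours of fallers fell and 1 rose. In 10 of the 12 pairs in which both passed the direction was the same, with no share over other gene pairs beside it. Of these 10 pairs 5 lay on the same strand and 2 converged on opposite strands. The kit does not mark strand, so in both arrangements reads of a transcript running on from the neighbour would count toward the member, which was not tested.

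FAIM2, an inhibitor of Fas-mediated apoptosis, starts 7.74 kb from LINC02395 on the other strand and had 1.91, 1.07 and 15.4 in 2D and 41.8, 42.7 and 45.4 in 3D (log2 3.26, SE 0.75, adjusted p = 0.018). NFAM1, an immune receptor that signals to NFAT, lies upstream of LINC01315 on the same strand and had 0.953, 1.07 and 5.14 in 2D and 21.3, 26.2 and 46.5 in 3D (log2 3.39, SE 0.63, adjusted p = 0.0081). Both were low in 2D, with 2D replicate 3 highest there, and higher in every 3D library. TMEM105, upstream of LINC00482 on the same strand, also rose (log2 1.28, adjusted p = 0.021). Other pairs that rose were named after their values were seen. NTSR1, the neurotensin receptor, lies 11.4 kb from LINC00659 and had 191, 167 and 344 in 2D and 2238, 2875 and 2593 in 3D (log2 3.52, SE 0.28, adjusted p = 0.00037), while LINC00659 itself had 22.9, 39.5 and 38.0 in 2D and 99.3, 55.3 and 76.4 in 3D. LINC02970 rose from 16.8 ± 4.97 to 56.8 ± 16.9 and SLCO4A1, an organic anion transporter gene 39.3 kb away, from 1108 ± 556 to 4806 ± 965. LINC02600 and LINC02361 rose with ADRA2C, an alpha-2 adrenergic receptor gene, and GALNT9, a glycosyltransferase gene (log2 1.07, adjusted p = 0.0070; log2 2.86, adjusted p = 0.0075). The rises of LINC00659 and LINC02361 were lost on omitting any one of 2D replicates 1 and 2 and 3D replicates 1 and 3, those of LINC02970 and LINC02600 on omitting 3D replicate 1 or 3, or else 2D replicate 2 and 2D replicate 1 respectively (adjusted p of up to 0.19 over the 4 genes). The call of FAIM2 was lost on omitting any one of 2D replicates 1 and 2 and 3D replicates 1 and 3, that of NFAM1 on omitting 3D replicate 3, and that of TMEM105 on omitting any library but 2D replicate 3 (adjusted p of up to 0.076, 0.053 and 0.078). NTSR1, SLCO4A1, ADRA2C and GALNT9 kept theirs in all 6 fits.

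Among the fallers, LINC02861 lies 2.80 kb past the end of ADCY9, an adenylyl cyclase gene on the same strand, which had 4306, 5196 and 3834 in 2D and 1474, 1670.2 and 1572 in 3D (log2 -1.49, SE 0.17, adjusted p = 0.0012). SWAP70, a gene for a Rac exchange factor, lies 1.78 kb from LINC02709 on the other strand and had 5694, 5952 and 4761 in 2D and 1902, 1881 and 1818 in 3D (log2 -1.54, SE 0.16, adjusted p = 0.00081). In both neighbours the cultures were far apart in every library. LINC00294 overlaps TCP11L1 on the same strand; the log2 changes were -1.42 and -1.50, and reads from the overlap have no certain origin. In opposite directions, LINC00472 rose while OGFRL1 fell from 2209.9 ± 1043 to 521 ± 128 (log2 -1.97, adjusted p = 0.011), and LINC01004 rose while KMT2E, a chromatin regulator gene, fell from 1889 ± 411 to 1099 ± 62.5 (log2 -0.76, adjusted p = 0.023). The call of OGFRL1 was lost on omitting 3D replicate 3, and that of KMT2E on omitting any library but 2D replicate 3 (adjusted p of up to 0.056 and 0.092). TEAD1, a transcription factor of the Hippo pathway 17.4 kb from LINC00958, fell from 18461 ± 4077 to 3610.1 ± 381 (log2 -2.34, adjusted p = 0.00055). POFUT2 starts 152 bases from LINC00205 and did not pass (log2 0.44, adjusted p = 0.13), and neither did C1orf174, which starts 79 bases from LINC01134 (log2 0.28, adjusted p = 0.30).

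**Figure D4:**
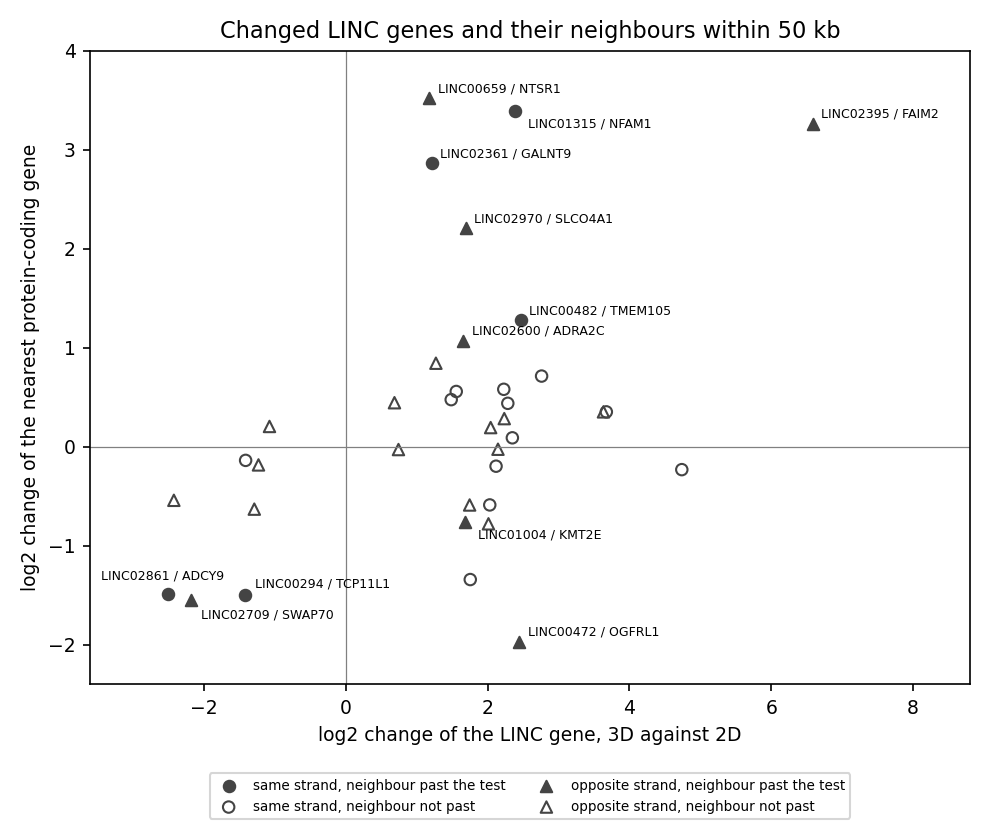
Log2 change (3D against 2D) of called LINC genes, on the x axis, against that of their nearest protein-coding gene, on the y axis, for pairs within 50 kb whose neighbour was tested; circles are pairs on the same strand, triangles on opposite strands, and filled symbols mark neighbours past the test. Of the 12 filled symbols 10 lie at upper right or lower left, and the pairs of LINC00472 and LINC01004 lie at lower right.

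RefSeq windows of this kind were found for 112 of 165 members, with a median of 15.5 CG pairs. Letters of 10 motifs were searched on both strands, ACGTG also being counted inside CACGTG, and shares of members are given against shares of all 35116 windows. They were TATAAA (the TATA box) in 8.93% against 11.5%, CCAAT (the CCAAT box) in 42.9% against 34.6%, CACGTG (an E-box) in 9.82% against 7.26%, TCATGTG (the M-box of MITF) in 2.68% against 2.92% and TGANTCA (AP-1) in 9.82% against 7.71% of windows. The rest were TGACGTCA (the cyclic AMP response element) in 4.46% against 1.85%, TGATGNAA (ATF4 with C/EBP) in 3.57% against 3.62%, GGAATG (TEAD) in 10.7% against 14.03%, ACGTG (the hypoxia response core) in 29.5% against 21.4% and TCACNCCAC (a sterol response element) in 1.79% against 1.13%. By direction, ACGTG lay in 6 of 31 risers, 1 of 10 fallers and 26 of 71 other members, and TGANTCA in 2, 3 and 6 of the same sets. No rule laid down beforehand picked these motifs, and counts of others also varied. CACGTG lay in 1, 0 and 10 and TGATGNAA in 1, 2 and 1 of these sets. The median of CG pairs was 11 in risers, 24 in fallers and 16 in other members. A match describes letters and is not a binding site.

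Sequence shared between members limits several risers, which are named for that reason. LINC01123 had 122, 133 and 136 in 2D and 349, 229 and 307 in 3D, and LINC01106 had 33.4, 33.1 and 42.2 in 2D and 102, 63.0 and 87.7 in 3D. They lie on opposite strands of chromosome 2 and shared 66.7% and 84.8% of their windows with each other. In both the 3D libraries were above the 2D libraries and the log2 changes were 1.15 and 1.18, but a read from the shared stretch fits either. The longest identical stretch had 1036 bases, and its first 75 are shown as what such a read looks like.
LINC01123 and LINC01106: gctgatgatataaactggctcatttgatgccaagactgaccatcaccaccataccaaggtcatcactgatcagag
LINC01270 and LINC01271 on chromosome 20, with log2 changes of 1.09 and 1.44, shared 40.5% and 54.7% of windows with each other. LINC01089, with 105 ± 62.6 in 2D and 393 ± 95.1 in 3D, LINC00115 and LINC00304 had 43.4%, 27.8% and 25.6% of windows in other genes. Each of these 7 calls was lost on omitting 3D replicate 3, and in most also on omitting other libraries (adjusted p of up to 0.15). Setting aside all 18 uncertain members left 35 risers and 13 fallers, a count of members alone without a share over all genes beside it.

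Of 38 well-known long non-coding RNAs with other names, 7 rose (18.4%, background 12.5%) and 0 fell (background 11.6%), with a median log2 change of 0.06. Omitting 2D replicate 3 gave 10 and 14 (background 22.6% higher and 23% lower). MALAT1, a nuclear speckle RNA, had 1983, 7603 and 7022 in 2D and 26528, 11577 and 20241 in 3D (log2 1.96, adjusted p = 0.029). NEAT1, the scaffold of paraspeckles, had 20608, 43116 and 9857 in 2D and 32249, 31066 and 39653 in 3D and did not pass (log2 0.73, adjusted p = 0.27). The largest changes were those of LUCAT1, from 15.1 ± 8.01 to 165 ± 31.6 (log2 3.50, adjusted p = 0.0020), and CASC15, from 3.05 ± 2.75 to 30.6 ± 15.1 (log2 3.22, adjusted p = 0.021). Of 18 genes of the nuclear RNA exosome and its adaptors, which degrade many such transcripts, 2 rose and 0 fell, with a median of -0.05. The share that rose, 11.1%, was close to that of all genes. With 2D replicate 3 omitted 4 rose and 4 fell, again close to all genes (22.2% each). The risers were EXOSC2, an exosome subunit, from 1717 ± 227 to 2582 ± 247 (log2 0.59, adjusted p = 0.038), and ZFC3H1, which links polyadenylated nuclear RNA to the exosome, from 917 ± 128 to 1659 ± 415 (log2 0.84, adjusted p = 0.029). Both calls were lost on omitting any one of 2D replicates 1 and 2 and 3D replicates 1 and 3, that of MALAT1 on omitting 3D replicate 1 or 3, and that of CASC15 on omitting any 3D library (adjusted p of up to 0.14, 0.12, 0.10 and 0.076), while LUCAT1 kept its call in all 6 fits.

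At the edge of the minimum, LINC01134, LINC02323 and LINC02925 lay just inside with means of 20.7, 20.7 and 20.4 normalised counts, and LINC01391, LINC02320 and LINC01983 just outside with 19.4, 19.2 and 18.7. LINC01134 had 7.62, 3.20 and 10.3 in 2D and 39.9, 27.1 and 36.1 in 3D. LINC02925 had 16.2, 3.20 and 5.14 in 2D and 39.9, 17.4 and 40.3 in 3D. Neither overlapped, whereas LINC02323, with 23.8, 17.1 and 14.4 in 2D and 29.7, 16.5 and 22.7 in 3D, did. Outside the minimum, LINC02320 had 1.91, 5.34 and 0 in 2D and 41.8, 29.1 and 37.2 in 3D, LINC01983 had 21.0, 35.2 and 45.2 in 2D and 1.86, 3.88 and 5.16 in 3D, and LINC01391 had 14.3, 26.7 and 14.4 in 2D and 17.6, 16.5 and 26.8 in 3D.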

How the data were processed

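Poly(A) RNA of 6 M14 libraries was sequenced on an Illumina NovaSeq after TruSeq library preparation, per the labels' protocols. The submitters' processing notes name GRCh38/hg38 and the tools HISAT2, featureCounts 1.5.0 and DESeq2; no annotation release is given in the sources used here. The authors deposited a signal for each gene, read counts over 1 size factor per library, as the values show: 100% were whole multiples of 1 step within 0.01 of a read. The 6 empty columns of the table were not used. Symbols came from a name table (26506 of 26748 genes), and coordinates, biotypes and exon lengths from GENCODE 29, which held all 165 members. Genes with a mean of at least 10 were tested with limma 3.58.1 (R 4.3.3; lmFit, eBayes with trend) on log2(value + 1), culture as the only term, two-sided, Benjamini-Hochberg adjusted over all 15598. Fold changes on that scale understate the change of low genes. Values are normalised counts, mean ± SD of 3 libraries. Limits for 0 reads (3 reads per culture) cover counting error only.

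The members and lists were chosen with earlier results of these data known, so no list was tested as a group, and a permutation test laid down for the members' share of reads was not used. Named members were the 10 highest, the 12 largest rises and 8 largest falls past the test without overlap, those with no reads in a culture, the 5 smallest adjusted p, the 3 on each side of the minimum, and 19 listed genes where they met it, of which 10 did. Other genes named were neighbours within 50 kb, up to 4 of each list and, named after their values were seen, further markers and neighbours. Alternatives were other pseudocounts, filters, scalings, edgeR 4.0.16 and DESeq2 1.42.0 on the recovered whole reads, a replicate block and leaving out each library. Shared windows of 75 bases were counted with Python 3.11.15 over GENCODE 29 transcripts on both strands. The fit was also run on simulated counts, drawn separately for each gene. No simulated library deviated in many genes at once, so that run does not bear on calls that hang on single libraries.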

Additional observations from a re-analysis of the deposited data

How the results depend on the processing

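The main counts were 42 higher and 13 lower. They were 13 to 53 and 5 to 31 over the 6 fits omitting 1 library, and 65 and 40 on omitting 2D replicate 3 together with 3D replicate 2, which was chosen after seeing the data. Testing only genes with a mean of at least 50 gave 25 higher and 11 lower. Of members with a mean of at least 50, 27 were higher, and of those with at least 100, 12. Of members that overlap no other gene, 23 were higher and 6 lower, fewer members being counted. At adjusted p under 0.01, 12 were higher and 5 lower. Shares over all genes were not set beside the counts of these subsets, which describe the members only. The pseudocount, the scaling by TMM or equal totals, edgeR (42 and 13), DESeq2 (52 and 16), robust eBayes and no filter moved both counts by less than 1.5 times. Equal totals moved the median log2 change of all genes by over 0.1, and the members' counts were 46 and 11. The replicate number as a block gave 34 higher and 11 lower. No share over all genes was set beside the counts with another pseudocount, scaling, filter, test or block either. They describe the members only. Same-numbered libraries did not deviate together (r = -0.08, -0.14 and 0.04), but with 3 libraries per culture this cannot exclude a pairing. The members' share of reads was 0.0471 percentage points above 2D in 3D, 0.0408 to 0.0591 on omitting 1 library. For 39 named members, 653 refits gave 63 lost calls, 14 gained calls and 8 changes of sign, the last only in members that had not passed: LINC01278 at 0.0122 with equal totals and -0.24 to 0.0134 on omitting 1, LINC01138 at -0.0023 in that added fit and -0.0117 to 0.71 on omitting 1, LINC00662 at -0.67 to 0.0621 (main -0.21) and LINC00941 at -0.72 to 0.0248 (main -0.23), these 2 having -0.85 and -1.16 in the added fit. Apart from fits on fewer libraries or genes, the cause was not tested. Low members limit precision, 105 of 165 having means under 100.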
